A study of Mus musculus with 2 samples.

Results

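The fibroblast growth factor (FGF) genes described here are the ligands Fgf8 and Fgf10, the receptors Fgfr1, Fgfr2, Fgfr3 and Fgfr4, the feedback inhibitor Spred2 and the transcription factor gene Etv1. They are 8 of the 33696 gene rows of the count tables, all 8 were found by symbol, and each was followed through cell classes that were gated by other genes. The material was the dissected sensory strip of the mouse cochlea, which the labels call basement membranes, at postnatal day 7. The library labelled Serpine2 cOE came from 20 pooled cochleae of mice with 1 Lgr5-EGFP-CreER allele and loxP-flanked Serpine2 on both alleles, and the control library came from 19 pooled cochleae of mice with the same loxP-flanked Serpine2 alleles and no driver. Both groups had received tamoxifen, at postnatal day 1. The driver is active in cells that express Lgr5, and the labels do not describe what recombination leaves at Serpine2.

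FGFs are secreted proteins that bind receptor tyrosine kinases together with heparan sulfate and signal mainly through the Ras and ERK cascade. Cells answer with ETS transcription factors of the Etv1, Etv4 and Etv5 group and with inhibitors of the Sprouty and Spred families, which damp the same cascade. In the developing mouse organ of Corti, Fgf8 from inner hair cells acts on Fgfr3 in the neighbouring pillar cell precursors, and Fgf10 is made in the medial part of the cochlear duct and signals through Fgfr2.

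With 1 library in each group there was no replicate, so no test was made and every interval covers counting error only. A difference between the libraries cannot be told apart from a difference between the 2 pools, dissections or runs. The driver allele was present only in the mice of the library labelled Serpine2 cOE. Its own effects cannot be told apart from those of recombination at Serpine2. The library labelled Serpine2 cOE had 12014 barcodes and 40429121 unique molecular identifiers (UMIs, each standing for 1 captured transcript), and the control library had 9820 barcodes and 31158971 UMIs. After filtering, 9753 and 8135 nuclei were kept, with medians of 2399 and 2246 UMIs, and 16 barcode sequences were present among the kept nuclei of both libraries. Serpine2 stood at 86.6 CPM (UMIs scaled to a class total of 1000000) in the kept nuclei of the cOE-labelled library and at 90.2 CPM in those of the control (log2 ratio -0.06, 95% interval -0.14 to 0.02), so the counts do not show the overexpression that the label names. In pillar and Deiters nuclei, which express Lgr5, Serpine2 was at 220 and 217 CPM. Whether the assay would count transcripts of the recombined allele as Serpine2 is not known.

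Nuclei were placed in 14 classes by genes other than the 8, and a class name stands for nuclei that resemble that cell type by those markers. Hair cell-like nuclei numbered 313 in the cOE-labelled library and 224 in the control, and of these 55 and 12 were inner and 201 and 151 were outer hair cell-like. Pillar and Deiters cells, the supporting cells around the outer hair cells, gave 42 and 34 nuclei. Kölliker's organ, the transient epithelium medial to the hair cells, gave 987 and 398. The other classes were interdental cells, lateral epithelium, roof epithelium, neurons (31 and 7 nuclei), macrophages (105 and 136) and 5 mesenchymal classes called by their gate gene Notum, Car3, Opcml, Tbx18 or Runx2. The 10 leading genes by fold held at least 1 marker of the class in every class but neurons, where none of the 10 was a listed marker and the 6 neuron gate genes summed to 1753 and 2339 CPM. Gate genes, Notum, Car3, Opcml, Prox1 and Ano1 among them, were not left out of this ranking. It is therefore not an independent check of the class names. Neither Fgf8 nor Fgfr3 was in a gate, yet Fgf8 came within the top 10 by fold in the inner hair cell class and Fgfr3 in the pillar and Deiters class. No class was formed for glia, endothelium or marginal cells, and 4481 and 4192 nuclei stayed without a class.

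By the positions of GENCODE M39 on GRCm39, Fgf8 lies on chromosome 19 from 45725237 to 45731354 on the minus strand and Fgf10 on chromosome 13 from 118806327 to 118928672 on the plus strand. Fgfr1 lies on chromosome 8 from 26003670 to 26066824, Fgfr3 on chromosome 5 from 33879018 to 33894412 and Fgfr4 on chromosome 13 from 55300352 to 55316572, all on the plus strand. Spred2 lies on chromosome 11 from 19874355 to 19974442 and Etv1 on chromosome 12 from 38828851 to 38920483, both on the plus strand. Fgfr2 lies on the minus strand of chromosome 7, and its extent is described with its values. The reads may fall in exons or introns of these genes, since the tables hold whole-gene counts of nuclear RNA.

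Fgf8, the ligand of inner hair cells, was nearly confined among hair cells to the inner type in both libraries. Inner hair cells held 112 Fgf8 UMIs in the cOE-labelled library, or 327 CPM (95% Poisson interval 269 to 393), and 13 in the control, or 171 CPM (91.2 to 293). Outer hair cells held 1 UMI in each library. Inner over outer hair cells, the log2 ratio was 8.46 (5.95 to 13.78) in the cOE-labelled library and 7.19 (4.46 to 12.60) in the control. With classes taken from clusters it was 4.87 and 4.36. No Fgf8 UMI was seen in pillar and Deiters nuclei, neurons or macrophages of either library. In pillar and Deiters nuclei 3 UMIs, the limit used for a count of 0, would correspond to 13.8 and 19.7 CPM. The exact Poisson intervals there end at 16.9 and 24.2 CPM. They end at 22.1 and 104 CPM in neurons and at 18.1 and 15.5 CPM in macrophages. The next class in the order of levels was Car3 mesenchyme, at 8.92 and 11.4 CPM from 3 UMIs in each library.

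Per nucleus, Fgf8 was found in 44 of 55 inner hair cells of the cOE-labelled library and in 9 of 12 of the control. In the cOE-labelled library 13 of these nuclei held 1 UMI, 13 held 2, 8 held 3, 3 held 4 and 7 held 5 or more. In the control 5 held 1 UMI, 4 held 2 and none held more. The outer hair cells with a UMI were 1 of 201 and 1 of 151.

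**Figure D1:**
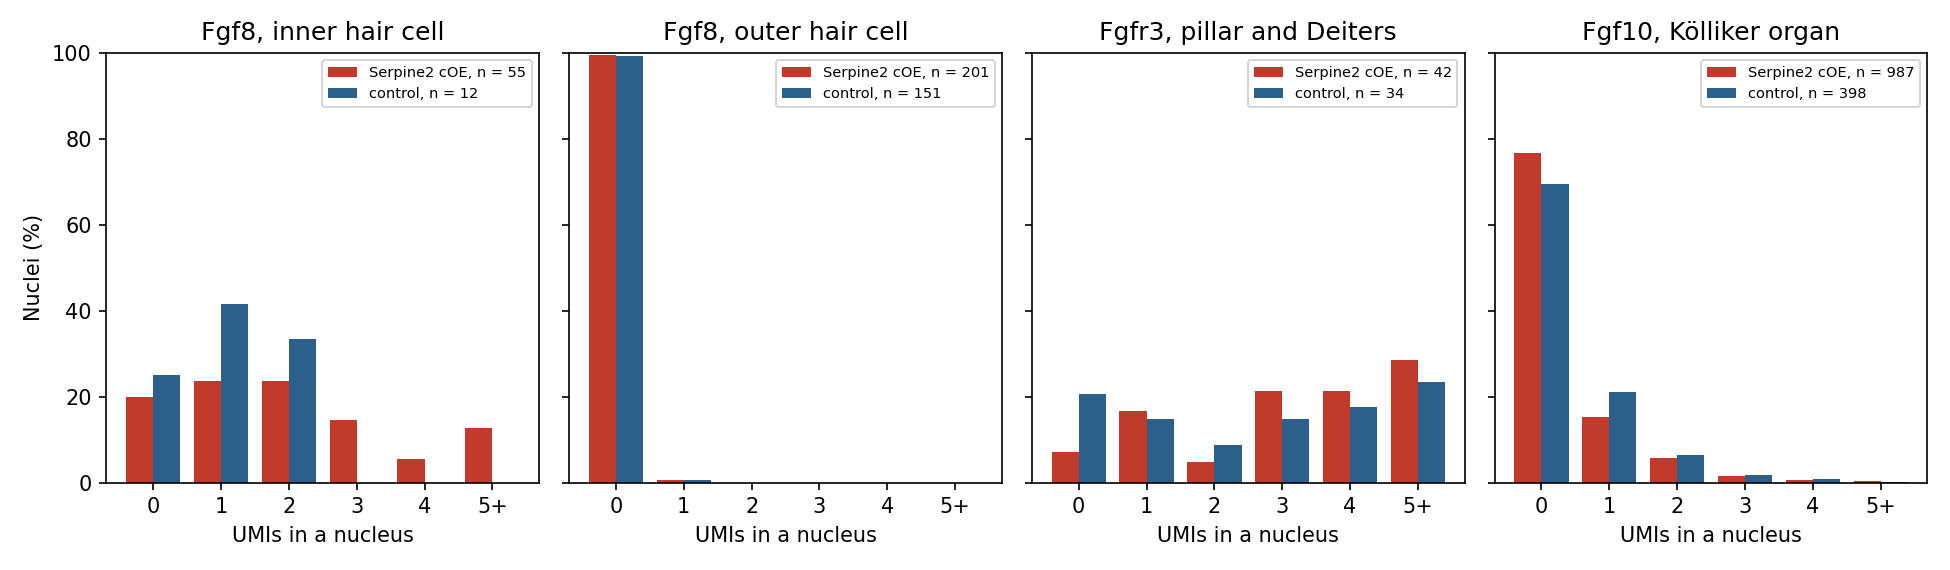
Share of nuclei (y axis, percent) by the number of UMIs of a gene in the nucleus (x axis), for Fgf8 in inner and outer hair cells, Fgfr3 in pillar and Deiters nuclei and Fgf10 in Kölliker's organ. Red bars are the library labelled Serpine2 cOE and blue bars the control. Most inner hair cells of both libraries hold at least 1 Fgf8 UMI, while 200 of 201 and 150 of 151 outer hair cells hold none.

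Between the libraries, the Fgf8 level of inner hair cells had a log2 ratio of 0.93 (0.10 to 1.89), higher in the cOE-labelled library. This value rests on 12 control nuclei, and after every nucleus was thinned to 1000 UMIs it was -0.61, with an interval (-2.01 to 1.01) that includes both 0 and the unthinned value. The thinned share of inner hair cells with a UMI was 27.3% and 41.7% (Clopper-Pearson intervals 16.1 to 41.0 and 15.2 to 72.3), against an unthinned 80% and 75%. The thinned shares ran against the CPM, and no order is read from them. In all hair cells together Fgf8 was at 71.4 and 14.0 CPM (log2 ratio 2.35, 1.59 to 3.20), a ratio that came to 1.25 after thinning, 1.40 with clusters and 1.33 with no upper limit on UMIs per nucleus. Beside this stood the number of inner hair cells, which were 0.564% of kept nuclei in the cOE-labelled library (0.425 to 0.733) and 0.148% in the control (0.0762 to 0.258). Over all kept nuclei Fgf8 was at 8.12 and 3.33 CPM (1.29, 0.93 to 1.65). More cells of a type and more RNA per cell cannot be told apart in such a sum. Outside the hair cells, Opcml mesenchyme held 13 Fgf8 UMIs in 13 nuclei of the cOE-labelled library and 1 in the control, which is 6.84 and 0.45 CPM.

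Fgf10, the ligand of the medial duct, had its highest class levels in neurons and in the epithelium from the interdental cells to the pillar cells, outer hair cells excepted. Many of its UMIs lay outside the classes. Nuclei above 10000 UMIs held 337 of 1165 in the cOE-labelled library and 213 of 548 in the control, and unassigned nuclei held 182 and 66. Neurons had the highest level in both libraries, at 646 CPM from 108 UMIs in the cOE-labelled library and 338 CPM from 12 UMIs in the control (log2 ratio 0.93, 0.07 to 1.93), the control value resting on 7 nuclei. Neurons over all other kept nuclei gave a log2 ratio of 4.28 (3.98 to 4.57) in the cOE-labelled library and 4.06 (3.1 to 4.87) in the control. Kölliker's organ was at 108 CPM (347 UMIs) and 126 CPM (174 UMIs). Its log2 ratio over all other kept nuclei was 1.93 (1.75 to 2.12) in the cOE-labelled library and 3.08 (2.81 to 3.34) in the control, and after thinning 2.75 and 3.799.

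Below these in the order came inner hair cells at 102 and 79.0 CPM, pillar and Deiters nuclei at 64.3 and 78.8 CPM and interdental cells at 70.2 and 45.1 CPM, all on 35 UMIs or fewer in a library. The point values of inner hair cells and of Kölliker's organ did not overlap between the 2 libraries, while pillar and Deiters nuclei and interdental cells overlapped. The Poisson intervals of inner hair cells, 71.1 to 142 CPM in the cOE-labelled library and 29.0 to 172 CPM in the control, hold the Kölliker's organ values. Counting error therefore leaves the order of these classes open. Outer hair cells, at 5.57 and 9.37 CPM, held far less than inner hair cells. The 5 mesenchymal classes lay between 4.34 and 14.9 CPM in the cOE-labelled library and between 1.83 and 11.4 CPM in the control. Macrophages had no Fgf10 UMI in either library, where the exact Poisson intervals end at 18.1 and 15.5 CPM, above the values of all 5 mesenchymal classes. Their UMIs of the 6 neuron gate genes were at 73.7 CPM in the cOE-labelled library and 12.6 CPM in the control. The part of free RNA in the Fgf10 values was not tested.

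Within Kölliker's organ the Fgf10 level was close in the 2 libraries (log2 ratio -0.22, -0.48 to 0.05), and 9.3% and 10.3% of its thinned nuclei held a UMI, against 23.2% and 30.4% unthinned and 0% in macrophages. Over all kept nuclei Fgf10 was at 36.4 CPM in the cOE-labelled library and 20.8 CPM in the control (0.81, 0.66 to 0.96). The classes that carry it were also larger there. Kölliker's organ was 10.1% of kept nuclei in the cOE-labelled library and 4.89% in the control, and neurons were 0.318% and 0.0860%. Nuclei without a class had 18.4 and 7.77 CPM (1.24, 0.83 to 1.67), and nuclei above 10000 UMIs had 57.0 and 34.0 CPM. The part of class sizes in the summed difference was not tested.

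**Figure D2:**
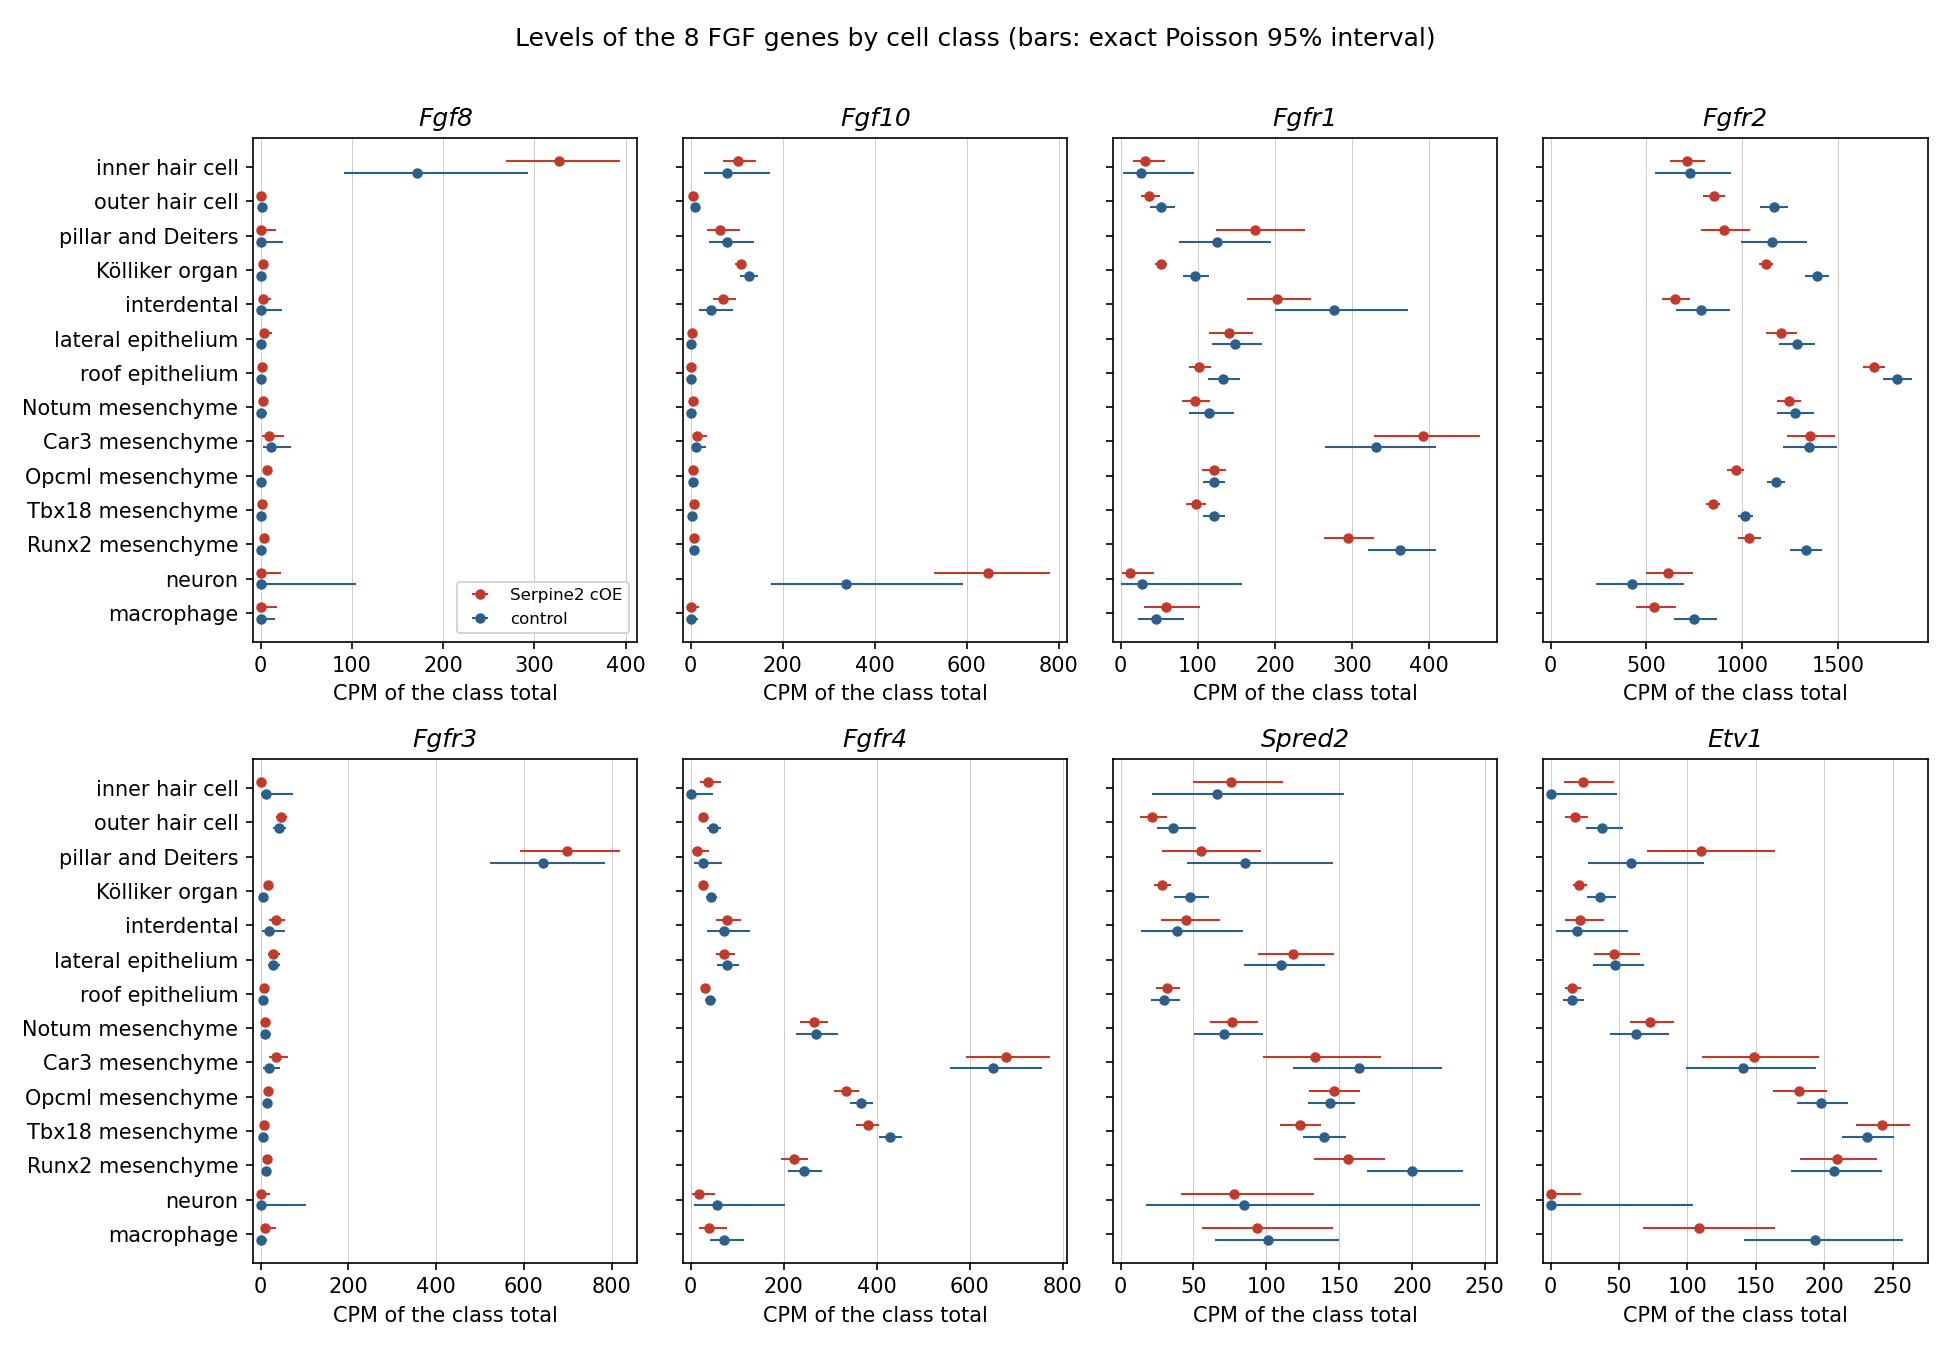
Level of each of the 8 genes (x axis, CPM of the UMIs summed over a class) in 14 cell classes (y axis), with red points for the library labelled Serpine2 cOE above blue points for the control and bars for exact Poisson 95% intervals. Fgf8 stands out in inner hair cells, Fgf10 in neurons and Kölliker's organ, Fgfr3 in pillar and Deiters nuclei and Fgfr4 in the 5 mesenchymal classes, Etv1 is highest in Tbx18 mesenchyme and low in Notum mesenchyme, and Fgfr2 is above 400 CPM in every class shown. Scales differ between panels, and levels are not compared between genes.

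Fgfr3, the receptor that shapes pillar cells, was the most sharply placed of the 4 receptors. Pillar and Deiters nuclei held 698 CPM from 152 UMIs in the cOE-labelled library (591 to 818) and 643 CPM from 98 UMIs in the control (522 to 784). The rest of the kept nuclei held 27.6 and 23.9 CPM, which is 25.3-fold less (21.1 to 30.1) and 26.9-fold less (21.5 to 33.4). In the cOE-labelled library 39 of 42 pillar and Deiters nuclei held an Fgfr3 UMI, and in the control 27 of 34 did. Thinned to 1000 UMIs, the shares were 59.5% and 45.5%, against 1.03% and 0% of macrophages.

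Outer hair cells came second, at 46.4 CPM (50 UMIs) and 41.0 CPM (35 UMIs), whereas inner hair cells held 0 and 1 UMI. In the cOE-labelled library the inner hair cells thus held Fgf8 and no Fgfr3 UMI, where 3 UMIs would be 8.75 CPM and the exact Poisson interval ends at 10.8 CPM, and the outer hair cells held Fgfr3 and 1 Fgf8 UMI. The control had the same order, but its 1 Fgfr3 UMI in inner hair cells stands for 13.2 CPM with an upper bound of 73.4. Further down, lateral epithelium at 28.2 and 27.9 CPM, Car3 mesenchyme at 35.7 and 19.0 CPM and interdental cells at 34.1 and 19.3 CPM overlapped between the libraries. Neurons had no Fgfr3 UMI, with exact Poisson intervals that end at 22.1 and 104 CPM.

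Between the libraries Fgfr3 was nearly level in pillar and Deiters nuclei (log2 ratio 0.12, -0.26 to 0.50), and at 0.50 (0.16 to 0.84) with no upper limit on UMIs per nucleus. It was also close in outer hair cells (0.18, -0.47 to 0.85). In Kölliker's organ it was at 15.9 CPM (51 UMIs) in the cOE-labelled library and 5.80 CPM (8 UMIs) in the control (1.46, 0.37 to 2.75), with macrophages at 9.83 and 0 CPM. That difference turned to -0.29 (-0.96 to 0.39) when the classes were taken from clusters instead of gates on single nuclei. Over all kept nuclei Fgfr3 stood at 32.2 and 27.5 CPM (0.23, 0.09 to 0.37).

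Fgfr4, a receptor best known from liver and muscle, was a gene of the mesenchyme in these nuclei. Car3 mesenchyme led at 678 and 651 CPM, followed by Tbx18 mesenchyme at 380 and 429 CPM, Opcml at 335 and 367 CPM, Notum at 265 and 269 CPM and Runx2 at 222 and 244 CPM. Each of these 5 stood apart from the next in that both its libraries were above both libraries of the class below. All other classes were at 78.7 CPM or lower in both libraries. Mesenchyme over the rest of the kept nuclei had a log2 ratio of 1.24 (1.16 to 1.31) in the cOE-labelled library and 0.91 (0.84 to 0.99) in the control. Between the libraries Fgfr4 was within 1.5-fold in all 5 mesenchymal classes, with log2 ratios from -0.17 to 0.06. The interval of Tbx18 mesenchyme (-0.30 to -0.05) leaves out 0. Over all kept nuclei Fgfr4 was at 186 and 245 CPM (-0.40, -0.45 to -0.35).

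Fgfr1, the receptor needed for the early expansion of the sensory epithelium, was spread more evenly. It was at 392 and 331 CPM in Car3 mesenchyme and at 295 and 363 CPM in Runx2 mesenchyme, 2 classes whose values overlap, and then at 202 and 277 CPM in interdental cells and at 175 and 125 CPM in pillar and Deiters nuclei. Inner and outer hair cells had 32.1 and 26.3 CPM and 37.1 and 52.7 CPM, close to macrophages at 59.0 and 46.2 CPM, the class that served to show free RNA, and no difference between hair cell types is read from them. Mesenchyme over the rest had a log2 ratio of only 0.30 (0.20 to 0.41) in the cOE-labelled library and 0.27 (0.17 to 0.38) in the control, and its Notum, Opcml and Tbx18 classes lay between 96.4 and 121 CPM. In Kölliker's organ Fgfr1 was at 51.9 CPM (166 UMIs) in the cOE-labelled library and 96.3 CPM (133 UMIs) in the control (-0.89, -1.23 to -0.55), and the first of these lies below the 59.0 CPM of macrophages in that library. With classes taken from clusters the log2 ratio was -0.34 (-0.55 to -0.12), under 1.5-fold.

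Fgfr2, whose epithelial form is the receptor for Fgf10, was counted in every class, including those in which it would serve as a background. Roof epithelium had the highest level, at 1687 and 1806 CPM, and Kölliker's organ had 1121 and 1388 CPM. Kölliker's organ over mesenchyme gave log2 ratios of 0.17 (0.11 to 0.23) and 0.28 (0.20 to 0.35). Macrophages, however, had 540 and 748 CPM and neurons 610 and 423 CPM, and 52.6% and 52.5% of thinned macrophages held a UMI. In macrophages Fgfr2 reached 56.0% and 63.6% of its level in Opcml mesenchyme, whereas the mesenchymal gene Creb5 reached 22.1% and 27.4% and Fgfr4 11.7% and 19.5%.

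The gene model of Fgfr2 bears on these counts. In GENCODE M39, 1 of 48 Fgfr2 transcripts spans 2961609 bases on GRCm39, while the next longest spans 104802. The model then runs from 129763471 to 132725079 and overlaps 99 other genes, of which 47 are on the same strand and 22 of those have rows in the count tables. RefSeq gives Fgfr2 a span of 104358 bases on GRCm38.p6. Which model the authors counted with is not given in the sources used here, and the tables do not show where in the gene a read fell. The Fgfr2 levels are therefore uncertain as levels of the receptor transcript, and the part of the long model in them was not tested. Over all kept nuclei Fgfr2 was at 1083 and 1249 CPM (log2 ratio -0.21, -0.23 to -0.18), and it was lower in the cOE-labelled library in 12 of the 14 classes, macrophages among them at -0.47 (-0.83 to -0.12).

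Spred2, which holds back Ras and ERK signalling, was highest in 4 of the 5 mesenchymal classes, where Runx2 mesenchyme had 156 and 200 CPM, Car3 134 and 164 CPM, Opcml 146 and 144 CPM and Tbx18 123 and 140 CPM. Lateral epithelium followed at 119 and 110 CPM. Macrophages were at 93.3 and 101 CPM, above Notum mesenchyme at 76.4 and 71.3 CPM and pillar and Deiters nuclei at 55.1 and 85.3 CPM. Etv1, an ETS factor that acts downstream of FGF receptors, had its highest levels in Tbx18 mesenchyme at 242 and 231 CPM, in Runx2 mesenchyme at 209 and 207 CPM and in Opcml mesenchyme at 182 and 198 CPM. Mesenchyme over the rest gave Etv1 a log2 ratio of 1.39 (1.29 to 1.49) in the cOE-labelled library and 1.10 (1.00 to 1.21) in the control. Macrophages held Etv1 at 108 and 193 CPM, Car3 mesenchyme at 149 and 141 CPM and Notum mesenchyme only at 72.9 and 62.2 CPM. No Etv1 UMI was seen in neurons, where the exact Poisson intervals end at 22.1 and 104 CPM.

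The number of the 8 genes that differed between the libraries varied by class. A gene was counted when it differed by at least 1.5-fold and had at least 20 UMIs over both libraries in that class. In hair cells 4 of 8 did, with Fgf8 and Fgf10 higher and Fgfr4 and Etv1 lower in the cOE-labelled library, where 18.1% of all genes did (8.49% higher and 9.66% lower). Inner hair cells were 55 of 313 of these nuclei in the cOE-labelled library and 12 of 224 in the control. Within inner hair cells the log2 ratio of Fgf10 was 0.37 (-0.89 to 1.91), and the part of their number was not tested. In outer hair cells 3 of 6 did, all lower (Fgfr4, Spred2 and Etv1), where 19.6% of all genes did (9.05% higher and 10.6% lower). In inner hair cells 1 of 4 did, with 34.6% of all genes, and in pillar and Deiters nuclei 2 of 6 (Etv1 higher and Spred2 lower), with 29% of all genes (15.5% higher and 13.5% lower). Kölliker's organ had 5 of 7, with Fgfr3 higher and Fgfr1, Fgfr4, Spred2 and Etv1 lower, beside 15.7% of all genes (8.75% higher and 6.99% lower), and 3 with classes taken from clusters, after thinning or without doublet removal. The median log2 ratio of the measured members was -0.37 in hair cells and -0.68 in Kölliker's organ, beside medians of -0.0048 and 0.03 over all genes. In lateral epithelium, roof epithelium and the Notum, Car3, Opcml and Runx2 mesenchyme none of the measured members differed by that much, beside 19.8%, 17.3%, 18.7%, 23.7%, 13.6% and 20% of all genes. In the other classes, 1 of 5 did in interdental cells (32.2% of all genes), 2 of 7 in Tbx18 mesenchyme (13.5%), 1 of 2 in neurons (40.2%) and 2 of 5 in macrophages (27.8%). Over all kept nuclei 2 of 8 did, Fgf8 and Fgf10, both higher, beside 12.1% of all genes (5.39% higher and 6.73% lower).

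The lower values in hair cells and Kölliker's organ belonged mostly to genes that were highest in the mesenchyme, and several mesenchymal markers were lower in the same nuclei. In hair cells Etv1 was at 16.5 CPM in the cOE-labelled library and 36.8 CPM in the control (log2 ratio -1.16, -1.90 to -0.43), and Fgfr4 at 27.1 and 48.2 CPM (-0.83, -1.43 to -0.24). The summed markers Tbx18, Creb5 and Prrx1 in the same hair cells were at 119 and 217 CPM (-0.87, -1.15 to -0.60) and Opcml at 34.2 and 73.6 CPM (-1.11, -1.61 to -0.61), with Car3 at -1.32, the 6 Runx2 mesenchyme genes at -0.33 and Notum at -0.38, the last with an interval that includes 0. In Kölliker's organ Fgfr4 was at 27.2 and 43.5 CPM (-0.68, -1.17 to -0.18; -1.55 after thinning), Spred2 at 28.4 and 47.8 CPM (-0.75, -1.22 to -0.27) and Etv1 at 20.9 and 36.2 CPM (-0.79, -1.34 to -0.23). All of these Fgfr4, Spred2 and Etv1 values lay below those of macrophages of the same library, and no difference in expression is read from them. Macrophages had 39.3 and 71.4 CPM for Fgfr4, 93.3 and 101 CPM for Spred2 and 108 and 193 CPM for Etv1. Their nuclei were shallower, with medians of 1589 and 1547.5 UMIs, against 5108 and 5045.5 in hair cells and 2815 and 3065.5 in Kölliker's organ. An equal number of free UMIs per nucleus gives a higher CPM in shallower nuclei, so a value below macrophages need not be background. How much of the macrophage counts is free RNA was not tested, and in the control the Etv1 level of macrophages (193 CPM) was close to that of Opcml mesenchyme (198 CPM). In Kölliker's organ the Tbx18, Creb5 and Prrx1 sum was at 179 and 241 CPM (-0.43, -0.63 to -0.23), Opcml at 47.5 and 76.1 CPM (-0.68, -1.05 to -0.31) and Car3 at 15.001 and 45.6 CPM (-1.61, -2.18 to -1.04), while Notum was the other way at 59.1 and 21.7 CPM (1.44, 0.88 to 2.05) and the 6 Runx2 mesenchyme genes were at 224 and 198 CPM (0.18, -0.03 to 0.38). Macrophages, in turn, held Etv1 lower in the cOE-labelled library (-0.84, -1.64 to -0.08). Among the mesenchymal markers in macrophages, Opcml was at 118 and 399 CPM (-1.76) and the Tbx18, Creb5 and Prrx1 sum at 477 and 597 CPM (-0.32), while Car3 was at 98.3 and 21.0 CPM (2.23, 0.77 to 3.995), the Runx2 mesenchyme genes at 423 and 248 CPM (0.77, 0.27 to 1.27) and Notum at 54.0 and 46.2 CPM. The part of mesenchymal RNA in these values was not tested.

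**Figure D3:**
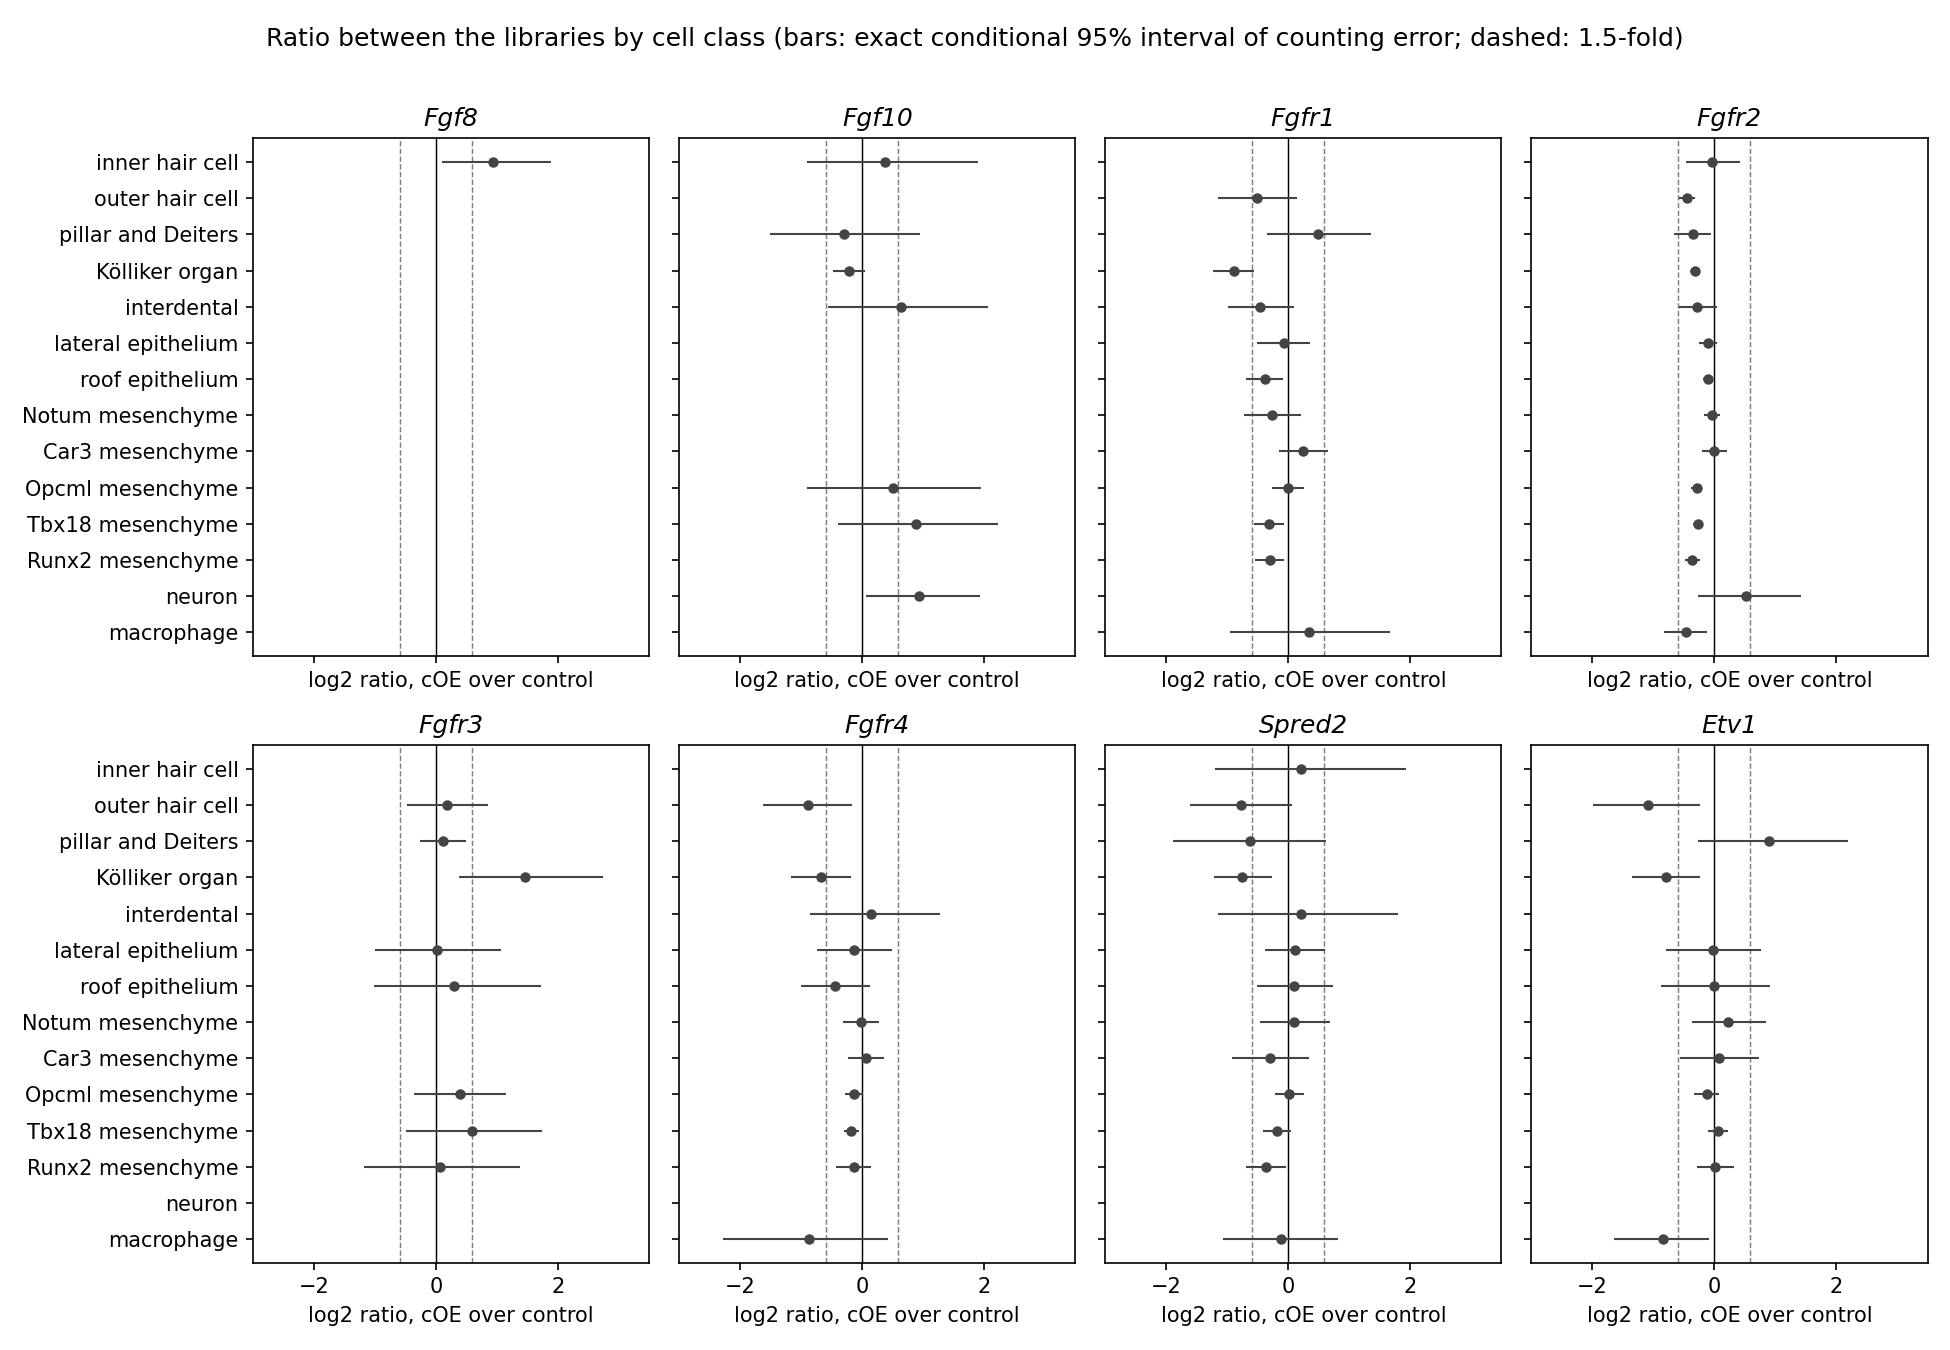
Log2 ratio of the library labelled Serpine2 cOE over the control (x axis) for each of the 8 genes in 14 cell classes (y axis), shown where the class held at least 20 UMIs of the gene over both libraries and both held some. Bars are exact conditional 95% intervals of counting error and dashed lines mark 1.5-fold. Fgfr4 and Etv1 lie near 0 in the mesenchymal classes and left of the dashed line in outer hair cells and Kölliker's organ, and Fgfr3 lies near 0 in pillar and Deiters nuclei.

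In pillar and Deiters nuclei, the class with the highest Fgfr3 level, Etv1 was at 110 CPM in the cOE-labelled library and 59.1 CPM in the control (log2 ratio 0.90, -0.26 to 2.19) and Spred2 at 55.1 and 85.3 CPM (-0.63, -1.89 to 0.62). Both intervals include 0, and the Etv1 level of macrophages was 108 and 193 CPM. In pillar and Deiters nuclei 29% of all genes passed 1.5-fold in either direction. The number of pathway genes past it was lower with clusters and after thinning. Etv4 and Etv5, the other ETS factors of the group, were higher in the cOE-labelled library, on few control UMIs. Etv4 had 106 CPM (23 UMIs) there and 39.4 CPM (6 UMIs) in the control (1.42, 0.09 to 3.01), and Etv5 had 129 CPM (28 UMIs) and 52.5 CPM (8 UMIs) (1.29, 0.12 to 2.64). Macrophages had Etv4 at 19.7 and 4.20 CPM and Etv5 at 68.8 and 79.8 CPM, so the control value of Etv5 lies below that of macrophages. Whether macrophages make Etv5 themselves was not tested. Spry2, a Sprouty inhibitor of the cascade, was at 96.4 and 151 CPM (-0.65), its highest class in both libraries. Lgr5, which is 1 of the gate genes of this class, was at 1208 and 617 CPM, and Opcml was at 27.6 and 453 CPM. Of the other mesenchymal markers, the Tbx18, Creb5 and Prrx1 sum was at 147 and 256 CPM (-0.80, -1.52 to -0.09), the Runx2 mesenchyme genes at 138 and 164 CPM (-0.25), Notum at 68.9 and 19.7 CPM (1.81, -0.02 to 4.24) and Car3 at 9.18 and 6.56 CPM. The part of gate depth or of mesenchymal RNA in the differences was not tested.

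Lgr5-positive nuclei outside the hair cell class, 607 in the cOE-labelled library and 455 in the control, were also compared. Hair cells were left out by their gate, so this set is not independent of the gates. Lgr5 UMIs were found in pillar and Deiters nuclei and in Kölliker's organ alike, so the set can hold several cell types. The part of its make-up in the following ratios was not tested. Fgf10 was at 82.5 and 50.4 CPM there (log2 ratio 0.71, 0.32 to 1.11) and Fgfr3 at 78.8 and 56.6 CPM (0.48, 0.10 to 0.86). Spred2 was at 49.1 and 70.3 CPM (-0.52, -0.91 to -0.12) and Fgfr4 at 110 and 151 CPM (-0.46, -0.73 to -0.20). Etv1, at 49.6 and 56.0 CPM, and Fgfr1, at 129 and 141 CPM, had intervals that include 0.

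Of 75 further genes of the pathway, 74 were in the files. In hair cells 47 were measured, of which 2 were higher and 9 lower in the cOE-labelled library by 1.5-fold, beside 8.49% and 9.66% of all genes. In outer hair cells 42 were measured, with 3 higher and 8 lower, beside 9.05% and 10.6%. In pillar and Deiters nuclei 30 were measured, with 8 higher and 5 lower, beside 15.5% and 13.5%. In Kölliker's organ 52 were measured, with 3 higher and 3 lower, beside 8.75% and 6.99%. Car3 mesenchyme had 37 measured, with 4 higher and 13 lower, beside 13.1% and 10.6%. Of the pathway genes 67 were measured over all kept nuclei, with 3 higher and 5 lower, beside 5.39% and 6.73%. The medians of their log2 ratios were -0.17 in hair cells, -0.02 in outer hair cells, 0.03 in pillar and Deiters nuclei, -0.0026 in Kölliker's organ, -0.21 in Car3 mesenchyme and 0.02 over all kept nuclei. In the other classes, counts higher and lower of those measured stand beside the share of all genes past 1.5-fold. Inner hair cells had 5 and 4 of 21 (34.6%) and interdental cells 8 and 3 of 36 (32.2%). Lateral epithelium had 6 and 0 of 43 (19.8%) and roof epithelium 4 and 2 of 46 (17.3%). Neurons had 4 and 3 of 13 (40.2%) and macrophages 4 and 6 of 32 (27.8%). Notum mesenchyme had 1 and 4 of 39 (18.7%) and Opcml 3 and 7 of 53 (13.6%). Tbx18 mesenchyme had 2 and 4 of 54 (13.5%) and Runx2 3 and 3 of 50 (20%).

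Of the other secreted ligands named here, Fgf9 held the most UMIs, 1347 in all kept nuclei of the cOE-labelled library and 727 in the control. Fgf9, a ligand of the non-sensory epithelium, was at 310 CPM (616 UMIs) and 242 CPM (295 UMIs) in roof epithelium and under 60 CPM in all other classes except control neurons, where 4 UMIs gave 113 CPM. Over all kept nuclei Fgf9 was at 42.1 and 27.5 CPM (log2 ratio 0.61, 0.48 to 0.74), with roof epithelium at 4.95% and 3.69% of kept nuclei. Fgf20, the ligand of the early prosensory domain, had 142 UMIs in all kept nuclei of the cOE-labelled library and 89 in the control, and Fgf3 had 9 in each. Fgf18 had 98 and 58 UMIs and Fgf2 had 290 and 225, and neither passed 1.5-fold over all kept nuclei (0.48 and 0.09). Fgf12, which codes for an FGF-like protein that stays in the cell and binds sodium channels, was at 66.5 and 32.6 CPM over all kept nuclei (1.03, 0.92 to 1.15), beside the larger number of neurons.

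Among the inhibitors and ETS factors, the lateral epithelium had the highest Etv5 level, at 279 and 291 CPM, together with Etv4 at 113 and 138 CPM. In that class the 2 libraries were within 1.5-fold for both. Il17rd, also called Sef, an inhibitor at the receptor, was highest in interdental cells at 155 and 129 CPM. In Runx2 mesenchyme Il17rd was at 76.5 and 121 CPM (log2 ratio -0.67, -1.11 to -0.22). Spred1 was spread over all classes and highest in macrophages at 187 and 206 CPM. Dusp6, an ERK phosphatase, had 150 UMIs in all kept nuclei of the cOE-labelled library and 131 in the control (-0.08), Spry1 had 149 and 100 (0.30) and Spry4 had 221 and 237 (-0.38). The decoy receptor gene Fgfrl1 was at 12.6 and 4.08 CPM in Opcml mesenchyme (1.63, 0.48 to 2.92) and at 13.3 and 8.94 CPM over all kept nuclei (0.57).

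**Figure D4:**
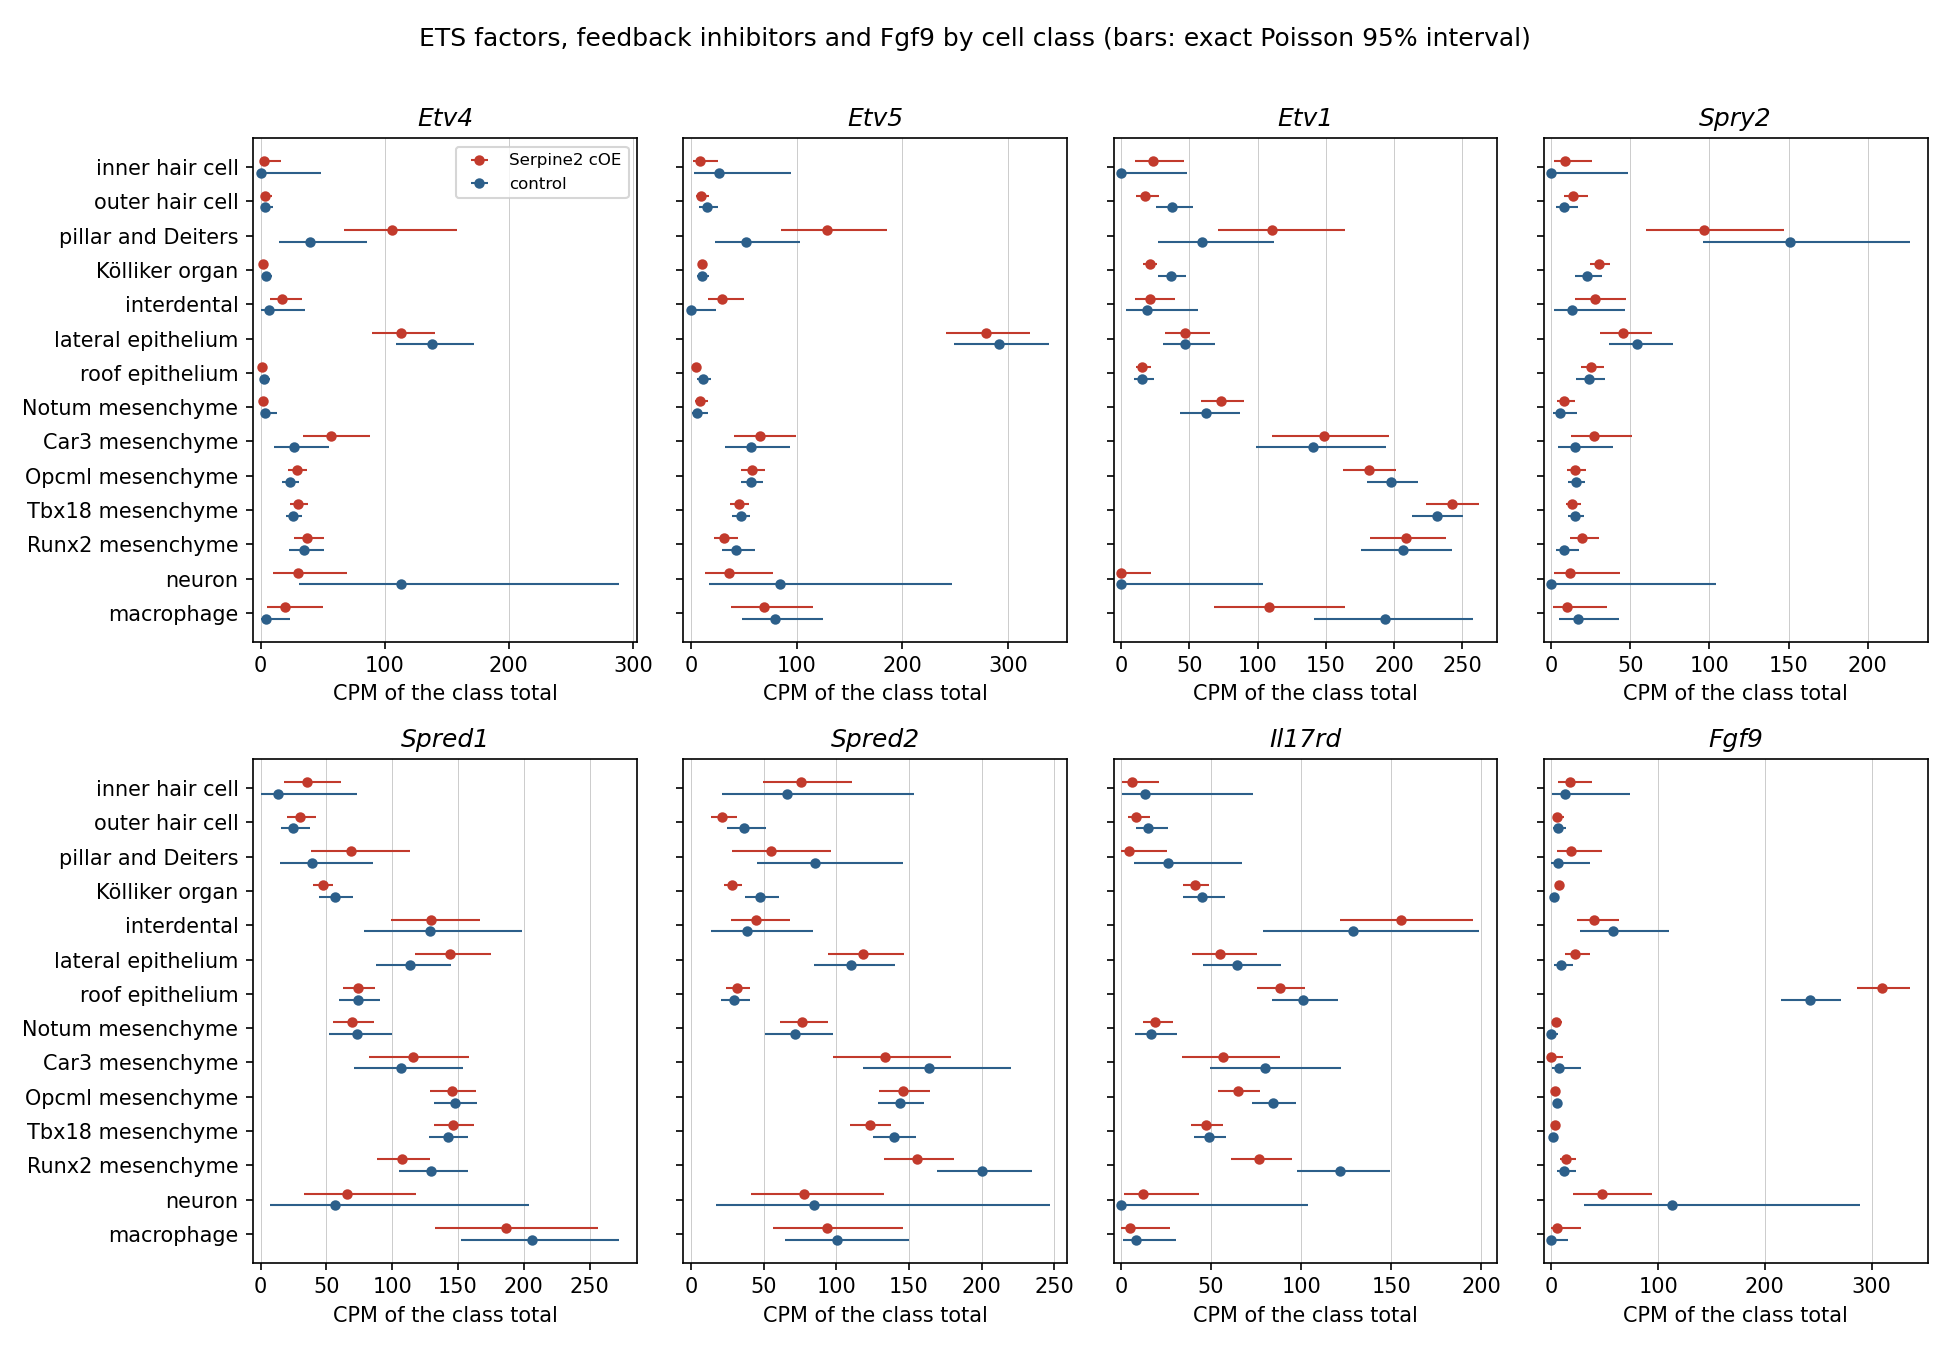
Level (x axis, CPM of the UMIs summed over a class) of ETS factor genes, feedback inhibitor genes and Fgf9 in 14 cell classes (y axis), with red points for the library labelled Serpine2 cOE above blue points for the control and bars for exact Poisson 95% intervals. Etv4 and Etv5 are highest in lateral epithelium, Etv1 in Tbx18 mesenchyme, Spred2 in Runx2 mesenchyme, Il17rd in interdental cells and Fgf9 in roof epithelium.

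Of the immediate early genes, which ERK and many other inputs induce, Egr1 was lower in the cOE-labelled library in all 5 mesenchymal classes and Fos in Opcml and Tbx18 mesenchyme. The Notum, Car3 and Runx2 classes held under 20 Fos UMIs each. In Opcml mesenchyme Egr1 was at 27.4 CPM in the cOE-labelled library and 106 CPM in the control (log2 ratio -1.96, -2.42 to -1.52) and Fos at 8.42 and 37.6 CPM (-2.16, -3.03 to -1.38). In Tbx18 mesenchyme Egr1 was at 25.4 and 50.7 CPM and Fos at 4.03 and 16.4 CPM. Egr1 was also lower in roof epithelium, at 12.1 and 40.2 CPM (-1.73, -2.50 to -1.001), and in interdental cells, at 36.2 and 142 CPM (-1.97, -2.97 to -0.99). Kölliker's organ had the other order, at 87.8 and 60.9 CPM (0.53, 0.17 to 0.90). Over all kept nuclei Egr1 was at 31.4 and 59.4 CPM (-0.92) and Fos at 10.6 and 20.5 CPM (-0.96). These genes are also induced during tissue handling, and the 2 pools were handled as 2 samples, so genotype and handling cannot be told apart. The Etv1 level of Opcml and Tbx18 mesenchyme differed by -0.12 and 0.07.

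Genes that act outside the cell on FGF signalling differed in several classes. Flrt2, a membrane protein that binds FGF receptors, passed 1.5-fold with an interval that leaves out 0 in 7 groups of nuclei, in both directions. It was at 650 and 397 CPM in roof epithelium (log2 ratio 0.71, 0.56 to 0.87), at 375 and 249 CPM in Opcml mesenchyme (0.59, 0.43 to 0.76) and at 78.4 and 48.5 CPM in Kölliker's organ (0.69, 0.30 to 1.10). In Car3 mesenchyme it was at 104 and 183 CPM (-0.81, -1.48 to -0.15) and in outer hair cells at 37.1 and 60.9 CPM (-0.71, -1.35 to -0.09). Interdental cells had 153 and 83.7 CPM (0.87, 0.01 to 1.85), and inner hair cells had 22 UMIs in the cOE-labelled library and 0 in the control. Sulf1, an enzyme that trims heparan sulfate, was at 70.6 CPM in outer hair cells of the cOE-labelled library and 206 CPM in those of the control (-1.55, -1.95 to -1.15). Beside this, macrophages held Sulf1 at 142 and 75.6 CPM and roof epithelium had its highest level, and in the same outer hair cells the Tbx18, Creb5 and Prrx1 sum was at 97.5 and 199 CPM (-1.03), Opcml at 32.5 and 70.2 CPM (-1.11), Car3 at 12.998 and 31.6 CPM (-1.28), Notum at 18.6 and 35.1 CPM (-0.92) and the Runx2 mesenchyme genes at 159 and 172 CPM (-0.12). Their part in the Sulf1 value was not tested. Hs6st2, a heparan sulfate 6-O-sulfotransferase, was at 354 and 230 CPM in pillar and Deiters nuclei (0.62, 0.03 to 1.24).

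The genes whose levels ran most like those of 3 members were ranked by Pearson's r of log2(CPM + 1) over 28 values, 14 classes in each of 2 libraries, among 14294 genes outside the marker lists. These points share libraries and depth, so r is a description. Nearest to Fgf8 were Atp2a3 (r = 0.81), Ap3s1 (0.79), Fbxw4 (0.78), 6530403H02Rik (0.77) and Rprm (0.76). Fbxw4 is the only 1 of the 5 on the chromosome of Fgf8, where it ends 76.3 kb before the start coordinate of Fgf8, on the same strand. Fbxw4 was at 289 and 316 CPM in inner hair cells, its highest class. It was found in every other class too, with macrophages at 118 and 76 CPM and Tbx18 mesenchyme at 110 and 99.4 CPM. Ap3s1 was likewise found in every class. Atp2a3, which codes for a calcium pump, was at 222 and 224 CPM in inner hair cells. Nearest to Fgf10 were Tmem266 (0.83), Frmd3 (0.82), Nin (0.82), Hecw2 (0.80) and Slc9a7 (0.78). Nearest to Fgfr3 were Rflnb (0.84), Cep41 (0.81), Tspan32 (0.79), Gm17057 (0.79) and Epn2 (0.76), with Cep41 at 2898 and 2442 CPM in pillar and Deiters nuclei and below 100 CPM in every other class.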

How the data were processed

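Nuclei of 2 pooled cochlear samples were measured by single-nucleus RNA sequencing. The authors deposited UMI counts for each gene and barcode, written by Cell Ranger 8.0.1 per the file headers. The 10x Chromium 3' kit was version 3.1 per the labels, and STAR is named in the submitters' processing notes. The build is GRCm39 in the design text and mm10 in the submitters' processing notes, and the annotation is not given in the sources used here.

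Nuclei with at least 500 genes and at most 5% mitochondrial UMIs were kept, and the top 0.8% of Scrublet scores (scanpy 1.11.5) per 1000 barcodes of a library were removed as doublets, 1064 and 818 nuclei. Each nucleus was gated on listed markers. It needed at least 2 distinct genes (4 for hair cells, 1 for the Notum, Car3 and Opcml gates). The Poisson upper tail given its depth had to be below 0.001 (0.01 for mesenchyme other than Runx2). Prox1 was required for pillar and Deiters nuclei and Ano1 for Kölliker's organ. Notum, Car3, Opcml and Tbx18 gates were applied only to nuclei that passed no other gate, and the lowest tail set the class. A nucleus that passed more than 1 of the other gates got no class. Nuclei above 10000 UMIs got no class. UMIs were summed by class and library, and CPM, exact Poisson intervals and exact conditional ratio intervals (scipy 1.17.1) were computed. With 1 library per group there was no test. The fold rule and intervals were tested on simulated data.

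The 8 genes, the marker lists and the pathway list were chosen with earlier results of these data known, and the gate rule after the nuclei had been looked at. The genes named are all 8, a fixed set of 14 pathway genes, a selection of those past 1.5-fold with an interval that leaves out 0, and the 5 genes most like each of Fgf8, Fgf10 and Fgfr3. Of 33696 gene IDs, 33185 were in GENCODE M39. TMM factors came from edgeR 4.0.16 in R 4.3.3. Alternatives were other gates, clusters, filters, doublet treatment, thinning, weights, scaling and UMI minimums.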

Additional observations from a re-analysis of the deposited data

How the results depend on the processing

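No paired analysis was possible because each group has 1 library, and leaving out a replicate was not possible for the same reason. Of 199 recomputed values of the class placements and of the counts past 1.5-fold, 159 stayed in the interval or within 1.5 times of the reported value. No placement turned round, and a count could not. A ratio was said to turn round only where its reported interval leaves out 0. Of 413 recomputed ratios of single members, 394 stayed in the interval and 2 turned round. Those were Fgf8 in inner hair cells, at -0.61 after thinning to 1000 UMIs, and Fgfr3 in Kölliker's organ, at -0.29 with Leiden clusters. The causes of all changes given here were not tested. With clusters, Fgf8 in inner over outer hair cells was 4.87 (log2) in the cOE-labelled library and 4.36 in the control, Fgfr3 in pillar and Deiters nuclei over the rest 5.22 and 5.24, and Fgfr1 in mesenchyme over the rest 0.50 in the cOE-labelled library. Pathway genes past 1.5-fold then numbered 6 in hair cells, 4 in pillar and Deiters nuclei and 10 in Kölliker's organ, where members numbered 3. After thinning, Fgfr3 was 5.41 and 5.53, Fgf10 in Kölliker's organ over the rest 2.75 and 3.799, and Fgfr2 in Kölliker's organ over mesenchyme 0.16 in the control. Members then numbered 2 in hair cells, 0 in pillar and Deiters nuclei and 3 in Kölliker's organ, and pathway genes 3 in hair cells and 0 in pillar and Deiters nuclei. With equal weight per nucleus Fgfr3 was 5.05 and 5.20 and Fgf10 2.55 and 3.88. Without the upper limit of 10000 UMIs, an alternative chosen after seeing the data, Fgf8 was 4.65 in the cOE-labelled library and Fgfr3 4.36 and 4.06, 1 member was past 1.5-fold in pillar and Deiters nuclei, and Fgf8 in all hair cells had a log2 ratio of 1.33. In pillar and Deiters nuclei 1 member was past 1.5-fold with 1 more marker, with 1 fewer marker and without the top nucleus, and pathway genes numbered 8 with 1 more marker and 8 without the top nucleus. Without doublet removal 3 members were past it in Kölliker's organ. With a minimum of 1 UMI the pathway counts were 19 in hair cells, 31 in pillar and Deiters nuclei and 20 in Kölliker's organ, and with 50 UMIs they were 3, 3 and 3, with 0 members in pillar and Deiters nuclei. The share of all genes past 1.5-fold was not computed under these alternatives, so their counts have no such share beside them. The control values of inner hair cells and neurons rest on few nuclei, 12 and 7.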

Other observations

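Barcodes above 10000 UMIs, 308 in the library labelled Serpine2 cOE and 291 in the control, were given no class, and they held 57 and 48 Fgf8 UMIs, or 9.64 and 7.67 CPM (log2 ratio 0.33, -0.25 to 0.91). Etv1 was at 64.9 and 89.0 CPM in them and Fgfr4 at 112 and 175 CPM (-0.65, -0.79 to -0.51). Nuclei that passed 2 or more gates numbered 93 and 60, the Notum, Car3, Opcml and Tbx18 gates not being counted. They held Fgf10 at 81.6 and 37.7 CPM (1.11, 0.27 to 2.03) and Fgfr4 at 36.6 and 80.2 CPM (-1.13, -1.97 to -0.31).

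Among the clusters used as an alternative to the gates, 1 without a class name held 25 nuclei of the cOE-labelled library and 645 of the control.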
